A study of Mus musculus with 2 samples.

Results

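Transcripts of hormone receptors and of luminal transcription factors were measured in mouse mammary cells grown with or without the cytokine TNF-α. The genes were chosen by name, with earlier results of these data known, and were 9 of the 49492 genes in the count table. They were the receptor genes Esr1, Pgr, Prlr and Ghr, the transcription factor genes Foxa1, Gata3 and Elf5, the coregulator gene Cited1 and the surface marker gene Ly6a. The study asked which genes differ between colonies and organoids of mammary basal cells that received TNF-α and those that did not. Basal cells were sorted by FACS from the mammary glands of adult female mice as Lin−CD24+CD29hi cells and grown as primary cells in a matrix gel with medium that contained EGF. Both groups were of WT genotype and came from this culture, and the study's methods give donors of 8 to 10 weeks for the preparation of mammary cells. A strain is not given for these libraries in the sources used here. The control group received no treatment, and the TNF-α group received recombinant mouse TNF-α at 10 ng/mL for 10 days. There was 1 library in each group, so no difference reported here has a replicate check.

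In the mammary gland, oestrogen and progesterone act through nuclear receptors that are found mainly in a subset of luminal cells, which pass the signal on to their neighbours by secreted factors. Prolactin and growth hormone act through membrane receptors of the cytokine receptor family, which signal through the kinase JAK2 and the STAT5 transcription factors. FOXA1 and GATA3 act with the oestrogen receptor in hormone-sensing luminal cells, and ELF5 directs the luminal progenitor and milk-secreting lineage.

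The control library held 44462275 counts and the TNF-α library 53487087 counts. Levels are given as CPM, the counts in each 1e6 counts of the library after scaling, or as RPKM, which is CPM divided by the summed exon length of the gene in kilobases. Levels of different genes are compared as RPKM. A log2 ratio is that of the TNF-α library to the control library, so a negative value is lower with TNF-α. A gene was called higher or lower where the ratio passed 2-fold, and no test was made. The intervals in parentheses are 95% intervals for counting error alone. Reads made by PCR and not tagged with molecular identifiers do not count independent molecules, so the intervals and floors cover no more than the counting of reads. They leave out the spread between cultures, which was not measured. Low counts were more often even than odd, with 618 genes at 1 count and 2172 at 2 in the control, as they would be where both ends of a fragment are counted. Whether they were is not given in the sources used here, and if they were, every interval printed here would be wider. Among the 20771 genes with at least 10 counts over both libraries, the log2 ratio had a median of 0.0038, and it ranged from -1.20 at the 5th percentile to 1.42 at the 95th.

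All 9 genes reached 10 counts, and the lowest sum over both libraries was 369 counts, for Cited1. Of the 9, 4 were lower past 2-fold with TNF-α and 0 were higher, against 6.62% lower and 8.56% higher among the 20771 genes. These shares are given as the background and not as a test, since the 9 were not chosen independently of the data. Among the 9345 genes with at least 1000 counts, a range that holds 7 of the 9, the shares past 2-fold were 2.02% lower and 2.65% higher. The 4 lower genes were the 4 hormone receptors. The median log2 ratio was -1.39 for the receptors and -0.77 for the transcription factors. The ratios of Cited1 and Ly6a lay above 0 and within 2-fold. In bulk libraries, fewer cells of a type and less RNA per cell cannot be told apart.

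**Figure D1:**
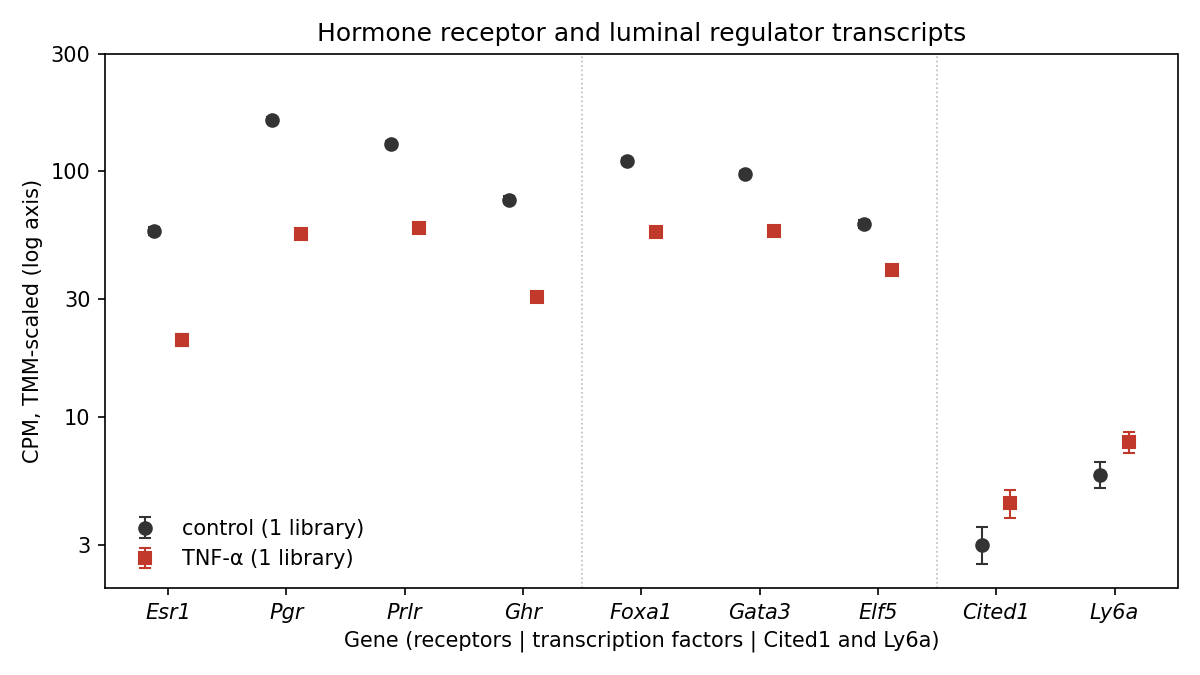
Level of each gene in CPM on a log axis in the control library (black circles) and the TNF-α library (red squares), 1 library each, with bars for the exact 95% Poisson interval of the count. Receptors and transcription factors were at a lower level with TNF-α, from 162 against 55.7 CPM for Pgr to 61.1 against 39.4 CPM for Elf5, and Cited1 and Ly6a were at a higher level.

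Pgr encodes the progesterone receptor, a nuclear receptor whose own transcription is a textbook response to oestrogen. It lies at chr9:8899833-8968611 on the plus strand of GRCm38, with 8546 exon bases. It had 7228 counts in the control and 2970 with TNF-α, or 162 CPM (158 to 166) and 55.7 CPM (53.7 to 57.7). The control was the higher sample and the 2 intervals did not overlap. The log2 ratio was -1.54 (-1.61 to -1.48), a 2.91-fold lower level with TNF-α. It was the lowest ratio of the 9 genes, and 0.749% of the genes with at least 1000 counts had a lower one.

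Esr1 encodes oestrogen receptor α. It spans chr10:4611593-5005614 on the plus strand in 19 exon blocks, which sum to 13661 bases. Its counts were 2547 in the control and 1094 with TNF-α, which gave 57.1 CPM (55.0 to 59.4) and 20.5 CPM (19.3 to 21.8). The level was again higher in the control, with no overlap of the counting intervals. Esr1 fell by 1.48 on the log2 scale, with an interval of -1.58 to -1.38, so that it was 2.78-fold lower with TNF-α. Per length, Esr1 was the lowest of the 4 receptors in both libraries, at 4.18 RPKM in the control and 1.501 RPKM with TNF-α.

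Ghr, the growth hormone receptor gene, lies at chr15:3317760-3583492 on the minus strand with 9053 exon bases. The control held 3408 counts and the TNF-α library 1643, or 76.5 CPM (73.9 to 79.1) against 30.8 CPM (29.3 to 32.3). Its log2 ratio was -1.31 (-1.40 to -1.23), and 1.07% of the genes with at least 1000 counts had a lower ratio. Prlr, the prolactin receptor gene, is on the same chromosome at chr15:10177238-10349180 on the plus strand, with 15339 exon bases. It had 5767 counts in the control and 3119 with TNF-α, or 129 CPM (126 to 133) and 58.5 CPM (56.4 to 60.5). Both genes were higher in the control library and neither pair of intervals overlapped. Prlr had a log2 ratio of -1.15 (-1.21 to -1.08) and was the called gene nearest the 2-fold threshold, at 2.21-fold lower (2.12 to 2.31). Prlr shares 203 exon bases with Gm21973, a gene of 358 exon bases on the same strand with 288 and 184 counts, so a small part of its reads cannot be assigned to it with certainty. In the control library Ghr and Prlr stood at 8.45 and 8.44 RPKM, with counting intervals that overlapped. With TNF-α they stood at 3.40 and 3.81 RPKM, and the intervals did not overlap, although they did with halved counts, where Prlr reached down to 3.62 RPKM and Ghr up to 3.64 RPKM. The 4 receptors together had 18950 counts in the control and 8826 with TNF-α.

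Foxa1 encodes a pioneer factor that opens chromatin for the oestrogen receptor. It is a gene of 2 exon blocks with 3188 exon bases at chr12:57540631-57546121, minus strand. It had 4913 counts in the control and 3009 with TNF-α, or 110 CPM (107 to 113) and 56.4 CPM (54.4 to 58.4). Foxa1 fell just short of the threshold and was not called, with a log2 ratio of -0.97 (-1.03 to -0.90). Its 1.95-fold lower level had an interval of 1.87 to 2.05, which included 2-fold. At 34.6 RPKM in the control and 17.7 RPKM with TNF-α, it was the most abundant of the 9 genes per length in both libraries.

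Gata3 encodes a zinc finger factor needed to form and keep luminal cells, and it lies at chr2:9857078-9890034 on the minus strand with 3978 exon bases. Its counts were 4345 in the control and 3056 with TNF-α, at 97.5 CPM (94.6 to 100.4) and 57.3 CPM (55.3 to 59.3). The log2 ratio was -0.77 (-0.83 to -0.70), within 2-fold. The counts of Gata3 are uncertain to the extent that its exons overlap other genes. It shares 155 exon bases with Gm13256 on the opposite strand, which had 2885 and 2091 counts on only 520 exon bases, and 77 bases with 9230102O04Rik, which had 318 and 181 counts. The log2 ratio of Gm13256 was -0.72. Whether the counting used strand is not given in the sources used here. Tagln, named after its values were seen, had 39710 counts in the control, and a gene on the opposite strand that shares 1241 exon bases with it had 40626. Reads in shared exons may therefore stand in the counts of both genes, on either strand, and this limits each overlapping gene named here. Elf5 encodes an ETS family factor that acts downstream of the prolactin receptor in alveolar development. It lies on the same chromosome at chr2:103411688-103450989, plus strand, with 5877 exon bases. Elf5 had 2721 counts in the control and 2105 with TNF-α, or 61.1 CPM (58.8 to 63.4) and 39.4 CPM (37.8 to 41.2), and a log2 ratio of -0.63 (-0.71 to -0.55). The 3 transcription factors were each at their higher level in the control, and 0 of 3 passed 2-fold. With a fold of 1.5 as the threshold, 7 of the 9 genes were called lower, which adds these 3 to the receptors, against 13.7% of the 20771 genes and 5.67% of those with at least 1000 counts. None of the 9 was called higher at that fold, against 15.5% and 6.88%.

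Cited1 encodes a transcriptional coregulator that binds CBP and p300 and is known in the mammary gland as a partner of the oestrogen receptor. It lies at chrX:102247381-102252181 on the minus strand with 1754 exon bases. It had 133 counts in the control and 236 with TNF-α, or 2.98 CPM (2.50 to 3.54) and 4.42 CPM (3.88 to 5.02). Here the TNF-α library was the higher sample, with a log2 ratio of 0.56 (0.25 to 0.89). Ly6a encodes the GPI-anchored surface protein Sca-1 and serves as an antigen for sorting mammary epithelium. The study describes Sca-1 as a label of luminal cells with oestrogen receptor and of a rare pool of basal cells. The gene Ly6a lies at chr15:74994877-74998031 on the minus strand with 1205 exon bases. Ly6a had 258 counts in the control and 419 with TNF-α, or 5.79 CPM (5.10 to 6.54) and 7.85 CPM (7.12 to 8.64). It was also higher with TNF-α, with a log2 ratio of 0.44 (0.21 to 0.67). Of the 75-base words in the annotated Ly6a transcripts, 6.33% also occur in Ly6c1 or Ly6i, so its counts are uncertain to that extent. Ly6c1 had 6 and 10 counts and Ly6i 1 and 0, both named after their values were seen. With halved counts, the interval of the log2 ratio was 0.12 to 1.02 for Cited1 and 0.12 to 0.77 for Ly6a, and for these 2 of the 9 genes the CPM intervals of the libraries then overlapped.

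Ordered by level per length, the genes ran in the control library from Foxa1 at 34.6 RPKM through Gata3 at 24.5, Pgr at 19.0, Elf5 at 10.4, Ghr at 8.45, Prlr at 8.44, Ly6a at 4.80 and Esr1 at 4.18 to Cited1 at 1.70 RPKM. Among neighbours in this order, Ghr and Prlr, and Ly6a and Esr1, did not differ beyond their counting intervals. In the TNF-α library the order was Foxa1 at 17.7 RPKM, Gata3 at 14.4, Elf5 at 6.71, Ly6a at 6.52, Pgr at 6.51, Prlr at 3.81, Ghr at 3.40, Cited1 at 2.52 and Esr1 at 1.501 RPKM. Elf5 and Ly6a, and Ly6a and Pgr, were the neighbours with overlapping intervals there. Foxa1 and Gata3 thus led both libraries, and Esr1 came last with TNF-α. Pgr was in the third place in the control and in the fifth with TNF-α. In the TNF-α library the interval of Pgr (6.28 to 6.75 RPKM) also overlapped that of Elf5 (6.43 to 7.01 RPKM). The counting intervals thus do not resolve the order of Elf5, Ly6a and Pgr there.

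Promoter sequence is shown for the 4 called receptors because they moved in the same direction, with the matches to 6 short motifs marked. RefSeq promoter windows of build GRCm38.p6 were given for 8 of the 9 genes, with 15 windows in all, and for each the 250 bases before the start were searched on both strands. An NF-κB motif, GGG and CC with any 5 bases between them, was in 6 of the 15 windows and in 45.8% of all 32851 windows of the same length. The STAT motif TTCNNNGAA was in 2 of 15, at Esr1 and Prlr, against 7.02% of all windows. Both matches read TTCTAGGAA, a form that was counted after the matches were seen and that 0.347% of all windows hold. As the form was taken from the matches, this share is no background for them. The forkhead motif TGTTTAC was in 2 of 15, at Foxa1 and Prlr, against 3.17% of all. The GATA motif AGATAA was in 0 of 15 windows against 9.99%. The oestrogen receptor half-site AGGTCA was in 1, at Cited1, against 14% of all, and TATAAA was in 4 of 15 against 12.4%. These are matches of letters and not measured binding. Ly6a had no promoter entry. The 4 receptors have 8 windows, and the 4 printed were chosen after the matches were seen, as those with a match and with at most 3 bases in counted exons. Of the others, 2 Prlr windows hold no match, and the other Esr1 and Ghr windows, which hold NF-κB matches, have 250 and 140 bases in counted exons. The printed windows are Pgr at chr9:8899583-8899832, Prlr at chr15:10223656-10223905 and Esr1 at chr10:4709908-4710157 on the plus strand, and Ghr at chr15:3581843-3582092 on the minus strand, each 5′ to 3′. Capitals mark TTTATA, the reverse complement of TATAAA, in Pgr, the forkhead and STAT motifs in Prlr, in that order, the STAT motif in Esr1, and the NF-κB motif and TTTATA in Ghr, in that order. Of the 250 bases of the Esr1 window, 3 lie in counted exons, and the other 3 printed windows hold 0 such bases.
Pgr: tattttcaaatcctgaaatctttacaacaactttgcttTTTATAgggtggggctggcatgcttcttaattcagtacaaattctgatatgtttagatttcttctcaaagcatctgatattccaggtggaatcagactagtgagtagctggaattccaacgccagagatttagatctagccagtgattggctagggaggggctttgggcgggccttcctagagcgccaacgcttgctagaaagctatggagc
Prlr: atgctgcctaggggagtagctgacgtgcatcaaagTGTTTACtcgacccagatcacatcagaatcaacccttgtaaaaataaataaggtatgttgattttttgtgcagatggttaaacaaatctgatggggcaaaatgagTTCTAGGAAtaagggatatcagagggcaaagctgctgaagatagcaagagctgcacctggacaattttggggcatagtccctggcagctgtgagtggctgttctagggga
Esr1: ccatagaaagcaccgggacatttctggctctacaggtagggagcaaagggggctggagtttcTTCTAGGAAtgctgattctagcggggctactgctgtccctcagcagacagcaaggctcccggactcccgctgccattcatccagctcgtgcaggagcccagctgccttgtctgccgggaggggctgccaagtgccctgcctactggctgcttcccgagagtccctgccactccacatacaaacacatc
Ghr: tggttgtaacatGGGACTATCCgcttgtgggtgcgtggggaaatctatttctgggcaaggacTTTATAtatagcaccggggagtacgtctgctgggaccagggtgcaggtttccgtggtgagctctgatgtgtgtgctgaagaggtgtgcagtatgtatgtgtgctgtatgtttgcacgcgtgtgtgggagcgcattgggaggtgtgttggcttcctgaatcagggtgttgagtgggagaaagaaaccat

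The other nuclear hormone receptors, a list of 15 genes, had a median log2 ratio of -0.57, against 0.0038 for all genes. Of these, 2 were lower past 2-fold and 0 were higher. Thrb, which encodes thyroid hormone receptor β, fell from 432 counts in the control to 134 with TNF-α, a log2 ratio of -1.93 (-2.24 to -1.67). The other was Esr2, which encodes oestrogen receptor β and was named after its values were seen. It had 10 counts in the control and 0 with TNF-α, at least 3.99-fold lower when the TNF-α count is set to a floor of 3 and the control count is taken as exact. The counting interval of its log2 ratio has no lower end and an upper end of -1.42. The list median was -0.57 with it at that bound as well. Vdr, the vitamin D receptor gene, was the most abundant of the list per length, at 16.9 RPKM in the control and 14.5 RPKM with TNF-α. With genes of at least 1 CPM in a library only, the list median was -0.29.

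Of 10 genes for other membrane receptors, such as those for oxytocin, insulin, IGF1 and leptin, 8 reached 10 counts, with a median of -0.11. Oxtr, the oxytocin receptor gene of myoepithelial cells, was the most abundant per length in the control and fell from 50.4 to 22.0 RPKM, with 10762 and 5630 counts and a log2 ratio of -1.19 (-1.24 to -1.15). Gper1, which encodes a G protein-coupled oestrogen receptor, rose from 12 to 42 counts, a log2 ratio of 1.42 (0.60 to 2.61). These 2 were the genes of the list past 2-fold.

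In a list of 16 genes of prolactin and growth hormone signalling, including the ligand genes Prl and Gh, 14 reached 10 counts, and their median log2 ratio was 0.01. In this list 1 gene was lower past 2-fold and 0 were higher. It was Stat5a, one of the STAT5 factors that these receptors activate, with 5462 counts in the control and 2942 with TNF-α, or 123 and 55.1 CPM. Its log2 ratio was -1.15 (-1.22 to -1.09). Stat5b, its close relative, had 3463 and 2570 counts and a log2 ratio of -0.69 (-0.76 to -0.62). Of the 75-base words of the Stat5a transcripts, 5.12% also occur in Stat5b, and Stat5a shares 72 exon bases with Stat3 on the opposite strand, so these counts are uncertain to that extent. Jak2, the kinase gene of this pathway, had 2858 and 5500 counts and a log2 ratio of 0.68 (0.62 to 0.75), within 2-fold and in the other direction. The feedback gene Cish had 100 and 195 counts with a log2 ratio of 0.69 (0.35 to 1.07), and Socs3 had 3956 and 2992 with -0.66 (-0.73 to -0.59). Cish shares 261 and 479 exon bases with 2 genes on the opposite strand, which had 24 and 36 counts in the control and 33 and 73 with TNF-α, so its counts and ratio are uncertain to that extent. Jak2, Cish, Socs3 and Prl were named after their values were seen. Ptpn1, a phosphatase gene of the pathway, was the most abundant per length in the control at 34.4 RPKM, and it stood at 33.2 RPKM with TNF-α. The ligand genes were the 2 that did not reach 10 counts, with Prl at 2 and 4 counts and Gh at 0 in both libraries.

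The genes known to respond to oestrogen or progesterone did not move together. Of 15, 13 reached 10 counts, with 2 lower past 2-fold, 2 higher and a median of 0.45. Areg, the amphiregulin gene and an oestrogen-induced signal of hormone-sensing cells, fell from 3126 to 722 counts, or 70.1 to 13.5 CPM, a log2 ratio of -2.37 (-2.49 to -2.26). Greb1, a coregulator gene induced by oestrogen, fell from 2454 to 663 counts, a log2 ratio of -2.14 (-2.27 to -2.02). Id4, which encodes an inhibitor of bHLH factors found in basal cells, rose from 1705 to 4105 counts. Its log2 ratio was 1.01 (0.93 to 1.09), and it shares 171 exon bases with a gene of 761 and 1878 counts on the opposite strand. With upper quartile scaling the ratio of Id4 was 0.998, just within 2-fold. Tnfsf11, the gene of the progesterone-induced signal RANKL, had 2 counts in the control and 16 with TNF-α, a log2 ratio of 1.99 with a wide interval of 0.65 to 5.90. The WNT pathway genes of the list lay within 2-fold. Rspo1 had 188 and 374 counts with a log2 ratio of 0.73 (0.48 to 0.99). Wnt4 had 208 and 340 counts with 0.45 (0.20 to 0.71). Wnt5a had 809 and 1174 counts with 0.28 (0.15 to 0.41), and it shares 358 exon bases with a gene of 9 and 23 counts on the opposite strand. Ctsd, a lysosomal protease gene, was the most abundant per length at 160 and 220 RPKM. It shares 808 exon bases with a gene of 14039 and 23343 counts, so its counts are uncertain to that extent. Calca and Tff1 were at 0 counts in both libraries.

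Among 12 receptor coregulators the median was -0.17, with 1 gene lower past 2-fold and 0 higher. Cited4, a relative of Cited1, fell from 131 to 72 counts, a log2 ratio of -1.10 (-1.56 to -0.70) that was -0.98, within 2-fold, after a correction for length and GC content chosen after seeing the data.

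Relatives of the 3 transcription factors and other luminal regulators formed a list of 20 genes, of which 15 reached 10 counts. Their median log2 ratio was -0.01. The 2 genes past 2-fold were both higher, and both were counted too rarely to give a level. Foxa3 had 2 and 12 counts, with a log2 ratio of 1.63 (0.16 to 5.53). Gata2, named after its values were seen, had 3 and 12 counts with an interval from -0.15 to 4.21 that included 0. The lowest ratio of the list was that of Tbx3, a T-box factor of hormone-sensing cells, at -0.88 (-0.98 to -0.79) with 2248 and 1457 counts, and it shares 115 exon bases with a gene of 83 and 67 counts on the opposite strand. Ehf, an ETS factor related to Elf5, was the most abundant per length at 46.1 and 42.3 RPKM.

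In the Ly6 family, 9 of 13 genes reached 10 counts, with a median of -0.05 and 1 gene past 2-fold. That gene, Ly6h, rose from 9 to 56 counts, a log2 ratio of 2.17 (1.35 to 3.58). Ly6d was the most abundant per length in the control at 46.6 RPKM, and it stood at 38.3 RPKM with TNF-α.

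**Figure D2:**
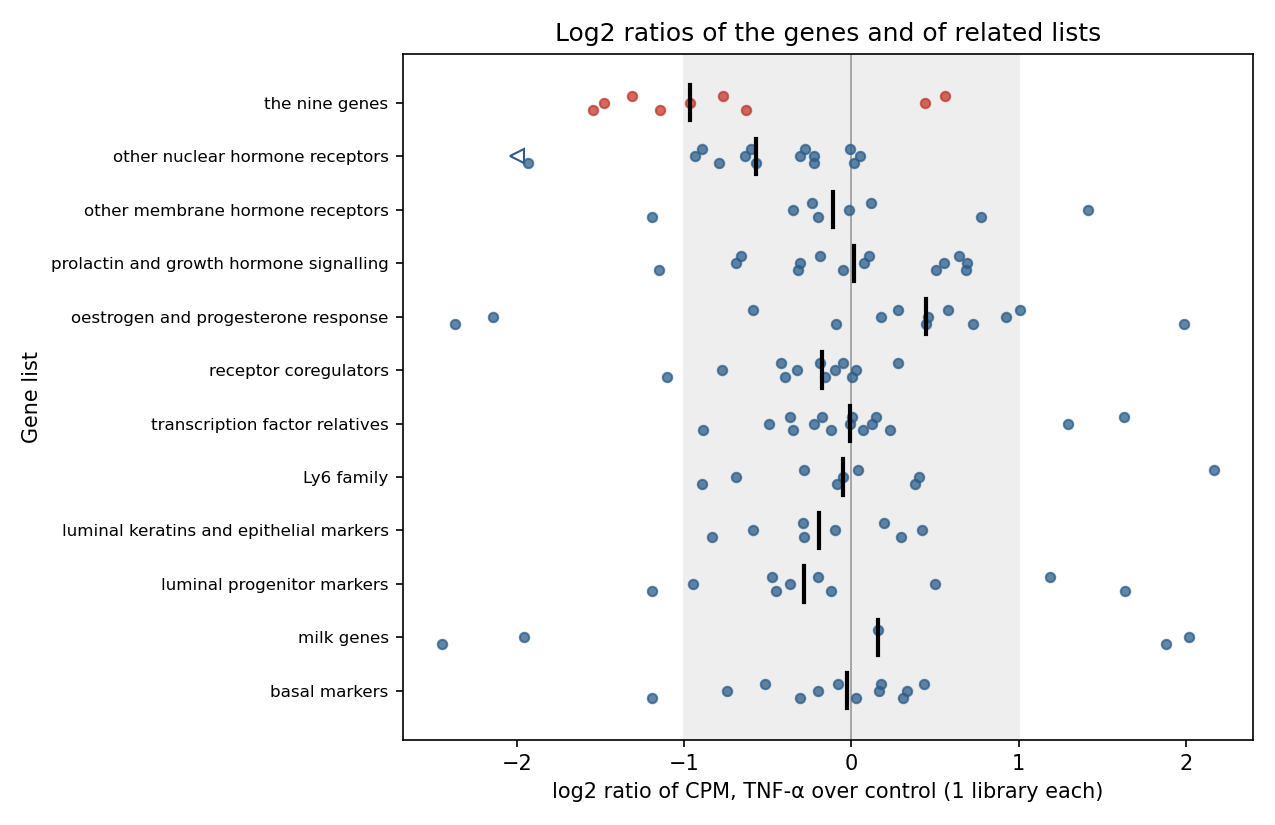
Log2 ratio of TNF-α to control (x axis, 1 library each) for the 9 genes in red and for the genes of 11 lists in blue, each point 1 gene with at least 10 counts, with a black bar at the median and the range within 2-fold shaded. The open triangle is Esr2 at its bound against a floor of 3 counts, and the median of the 9 genes is -0.97.

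The markers of the cell types were read in the same libraries. Basal markers were read first, although a ratio between the libraries cannot check the sorted origin of the cells. All 12 basal markers reached 10 counts. Their median log2 ratio was -0.03, and 1 of them, Oxtr, was lower past 2-fold. The median hides a spread, as 6 ratios lay above 0 and 6 below, from -1.19 to 0.44. Krt14 was the most abundant basal marker, at 2933 RPKM in the control and 2771 RPKM with TNF-α, with a log2 ratio of -0.08. Luminal markers were present as well. By FACS, the study found mostly luminal and few basal cells in control colonies grown from sorted basal cells. It reported a larger basal share with TNF-α. The cell shares of the cultures sequenced here are not given in the sources used. The 8 luminal keratins and epithelial markers summed to 4486 CPM in the control and 4045 CPM with TNF-α, and 0 of 8 passed 2-fold, with a median of -0.19. Krt8 was the most abundant of them at 672 and 627 RPKM. Their ratios ran from -0.84 (-0.86 to -0.81) for Krt19 to 0.42 (0.32 to 0.53) for Cldn3, which had 1140 and 1832 counts and shares 40 exon bases with a gene of 27 counts in each library.

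Of the 9 hormone-sensing luminal markers, 8 reached 10 counts, 2 were lower past 2-fold and 1 was higher, and Calca was at 0. They summed to 210.5 CPM in the control and 84.7 CPM with TNF-α, with a median of -0.30, or -0.60 for the genes with at least 1 CPM in a library. Areg and Greb1 held much of this sum, with 70.1 and 55.1 CPM in the control and 13.5 and 12.4 CPM with TNF-α. Of the 8 ratios, 5 lay below 0 and 3 above. Areg was the most abundant per length, at 57.7 and 11.1 RPKM. The genes past 2-fold, Areg, Greb1 and Tnfsf11, are also in the list of oestrogen and progesterone response. The part of this marker list in the lower receptor levels was not tested. The 10 luminal progenitor markers, all of them past 10 counts, summed to 1910 CPM in the control and 1726 CPM with TNF-α, with a median of -0.28. Mfge8, which encodes a milk fat globule protein and was the most abundant in the control at 117 RPKM, against 51.1 RPKM with TNF-α, fell from 24404 to 12802 counts, a log2 ratio of -1.19 (-1.22 to -1.16). The transferrin gene Trf rose from 7737 to 28764 counts, a log2 ratio of 1.63 (1.60 to 1.67). Of its 3320 exon bases, 2108 are shared with Gm20425 on the same strand, which had 8049 and 28891 counts. The counts and ratio of Trf are uncertain to that extent. Cd14, an LPS co-receptor gene, rose from 276 to 756 counts, a log2 ratio of 1.19 (0.99 to 1.40).

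Markers of cells outside the epithelium were also counted. The 8 fibroblast markers summed to 517 CPM in the control and 496 CPM with TNF-α, with a median of 0.02. Col1a1 was the most abundant in the control at 17.3 RPKM and stood at 18.1 RPKM with TNF-α. Of the 8, 1 was past 2-fold, Dcn, which rose from 184 to 582 counts. Ratios of the fibroblast markers ran from -0.93 (-1.10 to -0.77) for Pdgfrb to 1.39 (1.16 to 1.65) for Dcn, with 4 above 0 and 4 below. Of 6 adipocyte markers, 3 reached 10 counts, and Plin1 was at 0 in both libraries. Adipoq and Cidec, named after their values were seen, each had 2 counts in the control and 0 with TNF-α. The 6 markers summed to 23.6 and 9.89 CPM. The median was -1.20 over the 3 that reached 10 counts, with Lpl as the most abundant at 1.53 and 0.665 RPKM. Lpl fell from 715 to 372 counts and the leptin gene Lep from 127 to 10 counts, log2 ratios of -1.20 (-1.39 to -1.02) and -3.66 (-5.02 to -3.00). Endothelial markers were at a low level, with 6 of 7 past 10 counts, 8.46 and 7.96 CPM in sum and 0 past 2-fold. Their most abundant gene was Cdh5 at 0.598 and 0.700 RPKM, their median was -0.20, and the ratios ran from -0.30 for Kdr to 0.22 for Cdh5. For macrophages and other leukocytes, 7 of the 8 markers in the table reached 10 counts, with 17.2 and 16.9 CPM in sum, a median of -0.32 and 0 past 2-fold. Lyz2 was the most abundant of them at 2.02 and 1.61 RPKM, and the ratios ran from -0.56 for Itgam to 0.27 for Ptprc. Of 7 T cell markers, summing to 0.987 and 2.04 CPM, Lck alone reached 10 counts, with 42 and 103 counts and a log2 ratio of 1.003 (0.50 to 1.59) that was 0.995, within 2-fold, with upper quartile scaling. The defining T cell genes Cd3d, Cd3e, Cd3g and Cd8a were at 0 counts in both libraries. The part of the fibroblast and adipocyte markers in the receptor levels was not tested.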

How the data were processed

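RNA-seq was analysed from 1 control and 1 TNF-α library. The authors deposited read counts per gene, not normalized, with exon coordinates and summed exon length on GRCm38 (mm10). The aligner, the counting tool and the use of strand are not given in the sources used here. Coordinates of 8 of the 9 genes equal those of GENCODE M21. Library sizes were scaled by TMM in edgeR 4.0.16 (R 4.3.3) (TNF-α to control, 1.20). Log2 CPM ratios were taken with a prior count of 2 where a gene had 10 or more counts in sum. A count of 10 equals 0.224 CPM in the control and 0.187 CPM with TNF-α. Intervals of ratios come from the exact 95% Clopper-Pearson interval of the TNF-α share of a gene's counts, and those of CPM are exact Poisson intervals. No quasi-likelihood test was fitted, since there were no replicates. Calls were checked on simulated data, and the outcome is not reported here. The members and the 17 gene lists were chosen with earlier results of these data known. Named list genes are those past 2-fold with at least 50 counts (at most 4 per direction), the most abundant per length in the control, the highest and lowest ratio where no gene qualifies, and Rspo1, Wnt4, Wnt5a, Tnfsf11, Stat5a and Stat5b, and 1 gene under this rule is not reported here. Alternatives were total counts, DESeq2 1.42.0 size factors, upper quartile scaling, other prior counts, filters and folds, and halved counts. Python 3.11.15, pandas 2.3.3 and scipy 1.17.1 were used.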

Additional observations from a re-analysis of the deposited data

How the results depend on the processing

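No paired analysis was possible because each group has 1 library. The log2 ratios of the 9 genes were taken again under scaling by DESeq2 size factors, by the upper quartile or by total counts, prior counts of 0.5 and 5, no filter, a filter of 1 CPM and halved counts. The 2 filters could not move them, since all 9 genes pass both, and each other scaling shifted the 9 genes nearly alike, the largest shift being -0.0089. Prior counts and halved counts moved them by at most 0.0093. These alternatives thus test the 9 ratios little. Across these and a lowess correction on exon length and GC content (span 0.3), which was chosen after seeing the data, the range was -1.55 to -1.51 for Pgr, -1.49 to -1.44 for Esr1, -1.32 to -1.31 for Ghr and -1.15 to -1.13 for Prlr. It was -0.98 to -0.90 for Foxa1, -0.78 to -0.73 for Gata3, -0.64 to -0.61 for Elf5, 0.55 to 0.69 for Cited1 and 0.33 to 0.44 for Ly6a. The lowess correction moved Foxa1 to -0.895, outside its counting interval, and the cause was not tested. With a fold of 1.5, 7 of the 9 genes were called lower and 0 higher. Of all genes, 1777 were higher past 2-fold and 1375 lower. These counts were 3210 and 2846 at a fold of 1.5, a looser threshold. They were 836 and 658 among the 15605 genes with at least 1 CPM in a library, and 2679 and 2996 among the 27108 genes with at least 1 count, where the set of genes differs. Of 153 list medians under these alternatives, 19 equalled the main value, and 128 of the other 134 stayed between the medians of the lower and of the upper counting bounds of the genes in the list. The filter of 1 CPM, with fewer genes, moved the hormone-sensing luminal markers from -0.30 to -0.60. No filter, with more genes, moved the milk genes from 0.16 to 0.35, the leukocyte markers from -0.32 to -0.12 and the adipocyte markers from -1.20 to -1.07. The transcription factor relatives moved from -0.01 to 0.098 with no filter, to -0.15 with the filter of 1 CPM and to -0.12 with halved counts, so the sign of their median depends on the setting. The other nuclear receptors moved from -0.57 to -0.29 with the filter of 1 CPM, to -0.44 with halved counts and to -0.40 with the lowess correction. The lowess correction moved the basal markers from -0.03 to 0.0022, the luminal keratins to -0.13 and the hormone response genes to 0.498. Of 422 values of named list genes, 90 could not move, as the filters leave a tested gene's ratio as it is, and 319 of the other 332 stayed within their counting intervals. Calls of these genes were lost for Id4 with upper quartile scaling and with the lowess correction (0.91), for Cited4 with the lowess correction, for Gata2 with a prior count of 5 (0.95), and for Lck with upper quartile scaling, total counts (0.997), a prior count of 5 (0.96) and halved counts (0.97). Esr2, Foxa3, Gata2 and Tnfsf11 had too few counts for a value under the filter of 1 CPM or with halved counts, and Gper1 and Ptprc under the filter of 1 CPM. The cause of the lost calls was not tested. Depth limits the values of Foxa3, Gata2, Tnfsf11 and Esr2, each with fewer than 20 counts in sum.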

Other observations

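Genes of milk formation, a function that the prolactin receptor, STAT5 and ELF5 serve, differed in direction between the libraries. Of 9 listed, 5 reached 10 counts, with 2 higher past 2-fold with TNF-α, 2 lower and a median log2 ratio of 0.16. The casein genes Csn3 and Csn1s1 rose, from 1039 to 4592 counts and from 126 to 618 counts. Their log2 ratios were 1.88 (1.79 to 1.98) and 2.02 (1.76 to 2.32). Btn1a1, which encodes a protein of the milk fat globule membrane, fell from 1212 to 264 counts, a log2 ratio of -2.45 (-2.66 to -2.27). The α-lactalbumin gene Lalba fell from 96 to 28 counts, a log2 ratio of -1.96 (-2.70 to -1.42). Xdh was the most abundant of them per length in the control at 8.27 RPKM, and it stood at 9.25 RPKM with TNF-α, where Csn3 stood at 20.7 RPKM. Csn2, Csn1s2a and Glycam1 were at 0 counts in both libraries.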
